A study of Drosophila melanogaster with 4 samples.

Results

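The adhesion genes described here are 10 genes picked by symbol, namely shg, CadN, arm, alpha-Cat, p120ctn, Fas3, mys, rhea, Ilk and stck, out of 14664 genes in each deposited table. All 10 were present. They encode the classical cadherins and their catenin partners, an integrin subunit with its intracellular linker proteins, and Fas3 (Fasciclin 3), an immunoglobulin-type homophilic adhesion protein that is neither a cadherin nor an integrin. Testes of Drosophila melanogaster were profiled by RNA sequencing in 2 genotypes, labelled bam- and Phf7-bam-, with 2 libraries each. Both genotypes carry the bam mutation and differ in Phf7. The flies were dissected within 3 days of eclosion and had been grown at 25 °C. The labels name no other markers and no number of animals per library. Libraries of 1 genotype are called biological replicates there. The p-values rest only on the spread between such libraries, that of the gene itself and, through limma, that of other genes.

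Classical cadherins bind their like on the neighbouring cell, and their cytoplasmic tail holds arm, the fly beta-catenin, and p120ctn, while alpha-Cat connects arm to actin. Integrins are pairs of an alpha and a beta subunit that bind the extracellular matrix; talin, encoded by rhea, binds the beta tail, and the complex of Ilk, PINCH (encoded by stck) and parvin links it further to actin. In the fly testis, germline stem cells and cyst stem cells attach to the hub, a cluster of somatic niche cells, through E-cadherin. Hub cells are known for CadN and Fas3, and integrin holds the hub at the apical tip. Germ cells mutant for bam do not leave the mitotic spermatogonial programme, so these testes hold early germ cells with their somatic neighbours. Phf7, the gene of a PHD finger protein, is known for a part in male germline identity, and the comparison asks which transcripts differ when it is lost as well.

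Values are FPKM, sequenced fragments corrected for gene length and for library size, so that levels of different genes can be set side by side per length. Absolute depth is not known. Steps between the lowest values put the depth of the other libraries at 1.16 to 1.42 times that of bam replicate 1. Phf7, listed as CG9576, gave 173 and 152 FPKM for bam but only 18.8 and 22.9 FPKM for Phf7 bam, a log2 difference of -2.91 (SE 0.147, limma adjusted p = 0.00706). The Phf7 values follow the labels of all 4 libraries. Transcript of bam was present in both genotypes, with 28.6 and 26.5 FPKM for bam and 27.6 and 32.6 FPKM for Phf7 bam (difference 0.12, limma adjusted p = 0.955), so its level does not check the bam label. The alleles, and with them the part of the transcript a mutation would remove, are not given in the labels. Phf7 bam replicate 2 held the highest of the 4 values for 57.4% of the 8965 tested genes, and Phf7 bam replicate 1 the lowest for 48.1%. The replicates of that genotype therefore differ across the transcriptome in the direction in which 9 of the 10 members do.

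The cadherin genes themselves, shg and CadN, differed strongly in level and little between genotypes. shg, which encodes E-cadherin (dm3, 2R, 16938107 to 16944664), had 28.5 and 29.5 FPKM in the bam libraries, compared with 27.4 and 31.0 FPKM after loss of Phf7 as well. The Phf7 bam values enclose the bam values, and the log2 difference was 0.01 (95% interval -0.29 to 0.30, limma adjusted p = 0.995). Its level stood above that of 80.4% to 81.0% of all genes in the 4 libraries. In whole testes, fewer cells of a type and less RNA per cell cannot be told apart, which applies to every level here.

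CadN, which encodes N-cadherin (2L, 17649866 to 17739521), gave 0.864 and 0.990 FPKM for bam, and for Phf7 bam 0.935 and 0.813 FPKM. These low values overlap between the genotypes. Its mean of 0.900 FPKM lay under the minimum of 1 FPKM set for testing, so it was the 1 member without a test in the fit. With no minimum, its difference was -0.04 (limma adjusted p = 0.996). Within a library, shg was 29.3 to 38.1 times as high as CadN, and that ratio overlapped between genotypes. The annotation gives CadN 12 transcripts and a protein of up to 3101 residues, and shg 1 transcript and 1507 residues.

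The catenins were the members with the largest positive differences in the fit of all 4 libraries, and arm was the most abundant member in every library. That ranking depends on the libraries used. Without bam replicate 2, mys (difference 0.14) stood above p120ctn (0.05) and alpha-Cat (0.04). arm (X, 1785434 to 1794673), which also carries the Wnt signal, measured 113 and 114 FPKM with bam alone mutated, against 119 and 136 FPKM in the double mutant. Both Phf7 bam values lie above both bam values, which held for no other tested member but for 20.5% of all tested genes in the same direction. The means were 113.6 ± 1.10 and 127 ± 12.1 FPKM (SD, n = 2 each). The log2 difference of 0.16 had an SE of 0.120 and a 95% interval of -0.16 to 0.48, and it did not pass the test (limma adjusted p = 0.922).

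alpha-Cat (3L, 23311774 to 23331205), the actin-binding catenin, had 51.8 and 48.8 FPKM in the bam libraries, compared with 48.3 and 58.8 FPKM after loss of Phf7 as well. Replicate 1 of Phf7 bam was the lowest library and replicate 2 the highest, so the genotypes overlap (difference 0.08, SE 0.137, limma adjusted p = 0.979). p120ctn (2R, 482798 to 496995), a catenin that binds the cadherin tail next to the membrane, gave 44.6 and 42.0 FPKM for bam, and for Phf7 bam 42.6 and 50.1 FPKM. Here too the genotypes overlap, and the difference was 0.09 (SE 0.127, limma adjusted p = 0.975).

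**Figure D1:**
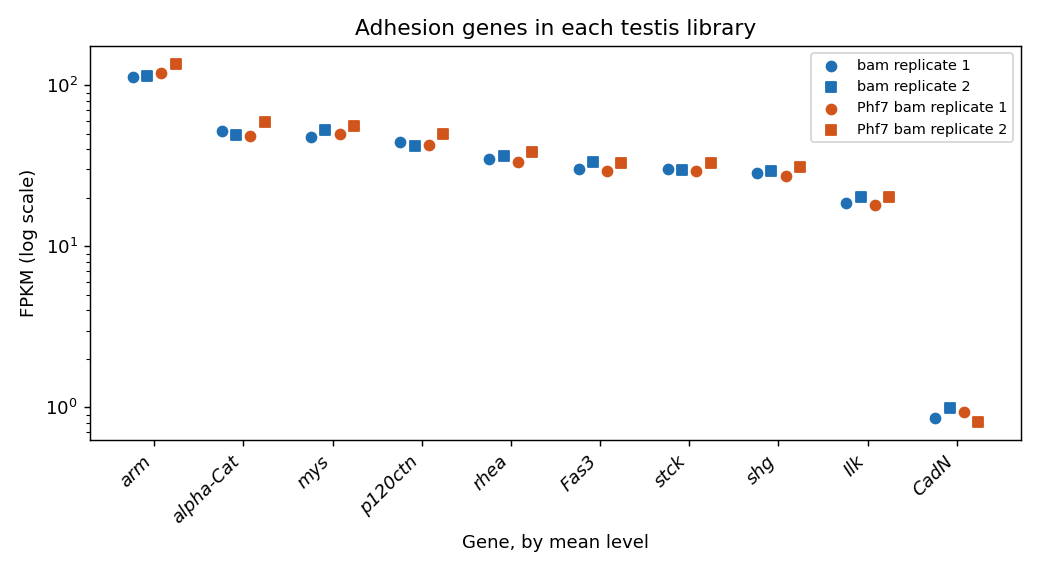
FPKM on a log axis of the 10 adhesion genes in each library, ordered by mean level; blue points are bam and orange points Phf7 bam libraries, circles replicate 1 and squares replicate 2. The genes other than CadN lie between 17.9 and 136 FPKM, CadN lies under 1 FPKM, and only the genotypes of arm do not overlap.

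Set against shg within a library, arm was 3.96 and 3.88 times as high in bam testes and 4.33 and 4.38 times as high in Phf7 bam testes. That ratio did not overlap between genotypes. Taken against shg, 3 of the other 8 tested members (arm, mys and stck) had both double mutant ratios above both bam ratios, beside 28.7% of all tested genes, and 1 (Fas3) had both below, beside 20.7%. For stck and Fas3 the gap was minute. The ratio of stck was 1.058 in both bam replicate 1 and Phf7 bam replicate 2. That of Fas3 was 1.066 in both bam replicate 1 and Phf7 bam replicate 1. The ratio of alpha-Cat to shg was 1.65 to 1.90 and that of p120ctn to shg 1.42 to 1.62 over the 4 libraries. Both of these overlapped between the genotypes. arm to alpha-Cat gave ratios of 2.18 and 2.35 for bam and 2.46 and 2.31 for the double mutant, which overlap as well. No test was run on these ratios.

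Fas3 (2L, 18320101 to 18392575), a marker of hub cells that is also found at septate junctions, measured 30.4 and 33.6 FPKM with bam alone mutated, against 29.2 and 33.0 FPKM in the double mutant. The genotypes overlap, and the difference was -0.04 (SE 0.121, 95% interval -0.36 to 0.28, limma adjusted p = 0.988). Its level was near that of shg in every library, at 1.065 to 1.14 times shg, while the other hub gene CadN lay far below. Fas3 spans 72475 bp, and inside this span, on the opposite strand, lies Acp36DE, a seminal fluid protein gene of the accessory gland.

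Acp36DE had 2.09 and 129 FPKM in the bam libraries, compared with 252 and 5.10 FPKM after loss of Phf7 as well. It was thus high in bam replicate 2 and in Phf7 bam replicate 1, and its highest value was 121 times its lowest. For Fas3 the highest value was 1.15 times the lowest. The annotated exons of the 2 genes share 0 bases. CG34171, which lies inside Fas3 on the same strand and also shares 0 exonic bases with it, was at 0.343 FPKM or less in every library.

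**Figure D2:**
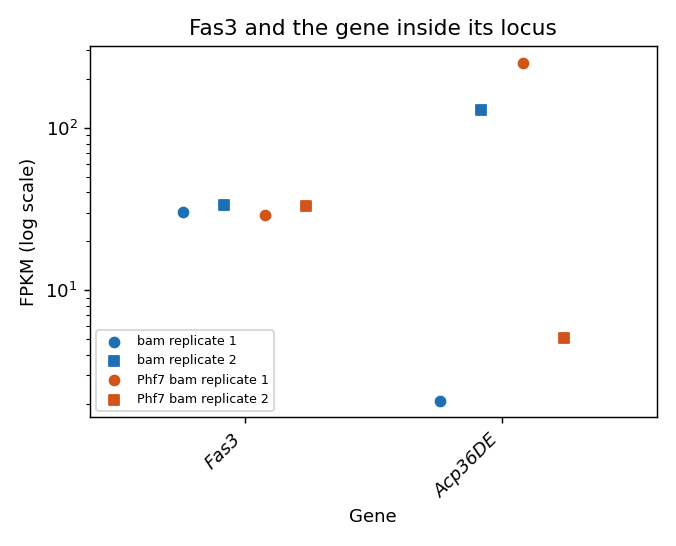
FPKM on a log axis of Fas3 and of Acp36DE, which lies within the Fas3 locus on the other strand, in each library; blue is bam, orange Phf7 bam, circles replicate 1 and squares replicate 2. Fas3 stays between 29.2 and 33.6 FPKM while Acp36DE ranges from 2.09 to 252 FPKM.

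On the integrin side, the beta subunit gene and its linkers stood at 17.9 to 56.0 FPKM and none passed the test. mys (X, 7955680 to 7964270), which encodes the main beta subunit, gave 47.8 and 52.8 FPKM for bam, and for Phf7 bam 49.5 and 56.0 FPKM. Replicate 1 was the lower library in both genotypes, and the genotypes overlap (difference 0.07, SE 0.123, limma adjusted p = 0.981). rhea (3L, 8554357 to 8567500), the talin gene, measured 34.7 and 36.3 FPKM with bam alone mutated, against 33.6 and 38.8 FPKM in the double mutant. The Phf7 bam values enclose the bam values, with a difference of 0.02 (SE 0.119, limma adjusted p = 0.989).

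Ilk (3L, 21209994 to 21212347), the integrin-linked kinase homologue that serves as an adaptor, was the lowest of the tested members, at 18.5 and 20.4 FPKM in bam and 17.9 and 20.1 FPKM in Phf7 bam testes. In both genotypes replicate 1 was lower, and the difference was -0.03 (SE 0.117, limma adjusted p = 0.988). stck (3R, 4182689 to 4185745), the PINCH gene, had 30.2 and 29.6 FPKM in the bam libraries, compared with 29.2 and 32.8 FPKM after loss of Phf7 as well, which overlap (difference 0.05, SE 0.111, limma adjusted p = 0.984). Its locus overlaps that of Veneno on the other strand by 66 bp, and 7 exonic bases are shared. Veneno was at 25.2 to 31.0 FPKM. Whether quantification used strand is not given, and if it did not, the reads of these few bases cannot be assigned to either gene. The rhea locus overlaps CG6638, which was listed at 0 in all 4 libraries.

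Ratios between integrin transcripts within a library varied to unlike degrees, and none was tested. mys was 1.38 to 1.47 times as high as rhea, and the highest of these ratios was 1.07 times the lowest. stck was 1.63, 1.45, 1.63 and 1.63 times as high as Ilk in bam replicates 1 and 2 and Phf7 bam replicates 1 and 2, so bam replicate 2 was the low one. Ilk stood at 0.955 to 1.21 times parvin, the other protein of the Ilk, PINCH and parvin complex, and the highest of these ratios was 1.27 times the lowest. Of the alpha subunits that could pair with mys, scb (alphaPS3) was the highest, at 30.7 and 32.4 FPKM in bam and 32.9 and 37.7 FPKM in Phf7 bam testes. The next were if (alphaPS2) at 6.76 to 7.89 FPKM and mew (alphaPS1) at 4.85 to 5.15 FPKM. scb was 4.54 and 4.11 times as high as if for bam and 4.87 and 4.78 times for the double mutant, ratios that do not overlap. The ratios of scb to mew, mys to Ilk and stck to Rsu1, a partner of PINCH, were also higher in both double mutant libraries. That of mys to scb was lower in both. Against shg, 28.7% of all tested genes were higher in both and 20.7% lower. The shares against if, mew, Ilk, Rsu1 and scb were not counted and can differ from these. ItgaPS5 was at 0.406 to 0.721 FPKM, and ItgaPS4 was listed at 0 in every library. The second beta subunit gene, Itgbn, was at 1.60 to 2.01 FPKM, and mys was 27.9 to 31.0 times as high.

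**Figure D3:**
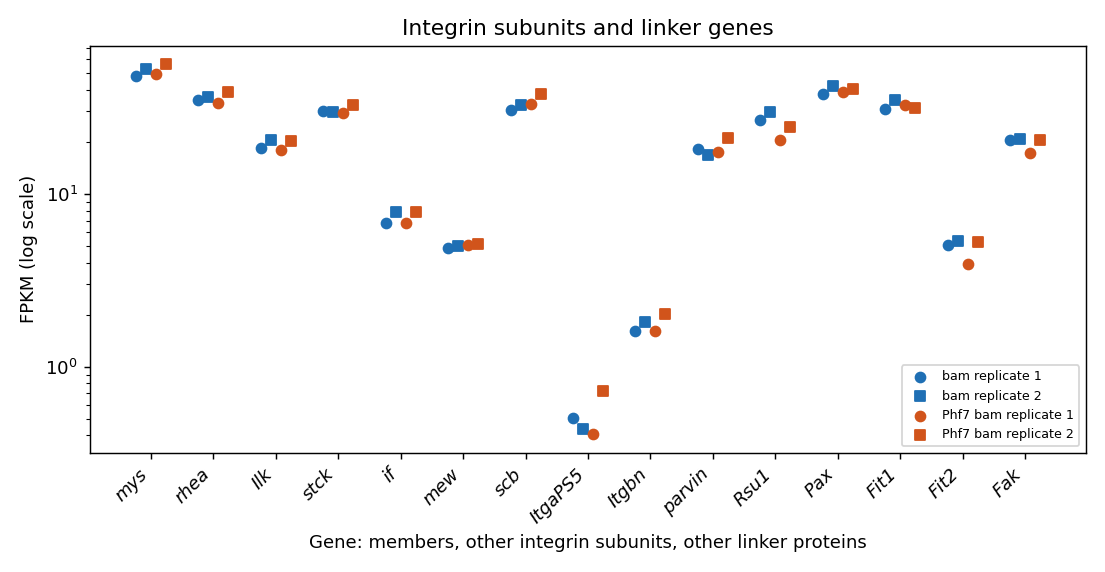
FPKM on a log axis of mys, rhea, Ilk and stck, of the other integrin subunits and of further linker genes in each library; blue is bam, orange Phf7 bam, circles replicate 1 and squares replicate 2. Among alpha subunits scb lies above if and mew, at 30.7 to 37.7 FPKM, and ItgaPS4, listed at 0, is left out.

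Across the genotypes limma called 0 of the 9 tested members, against 0.234% of the 8965 tested genes (0.123% higher and 0.112% lower). At an unadjusted p under 0.05 there were again 0 members, against 6.13% of tested genes, and with robust moderation 0 members, against 3.42%. Robust moderation gave most genes a spread pooled over genes of like level, in place of that between their own replicates. Its p-values can therefore be far smaller than those of the fit without it. The differences of the 9 members ran from -0.04 to 0.16 with a median of 0.05, beside a median of 0.03 over all tested genes. The 95% intervals of the 9 members lay between -0.36 and 0.48 on the log2 scale. As ratios of Phf7 bam to bam they reach from 0.781 at the lowest to 1.39 at the highest. These limits depend on which libraries are used: without bam replicate 1 they reach from 0.599 to 1.76, and without bam replicate 2 from 0.648 to 1.79. Without a Phf7 bam library they shifted rather than widened. The differences of the 9 members then ran from 0.05 to 0.26 without replicate 1 and from -0.12 to 0.06 without replicate 2. All differences given are on the log2(FPKM + 1) scale. A p that misses the threshold does not show that the genotypes are equal.

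**Figure D4:**
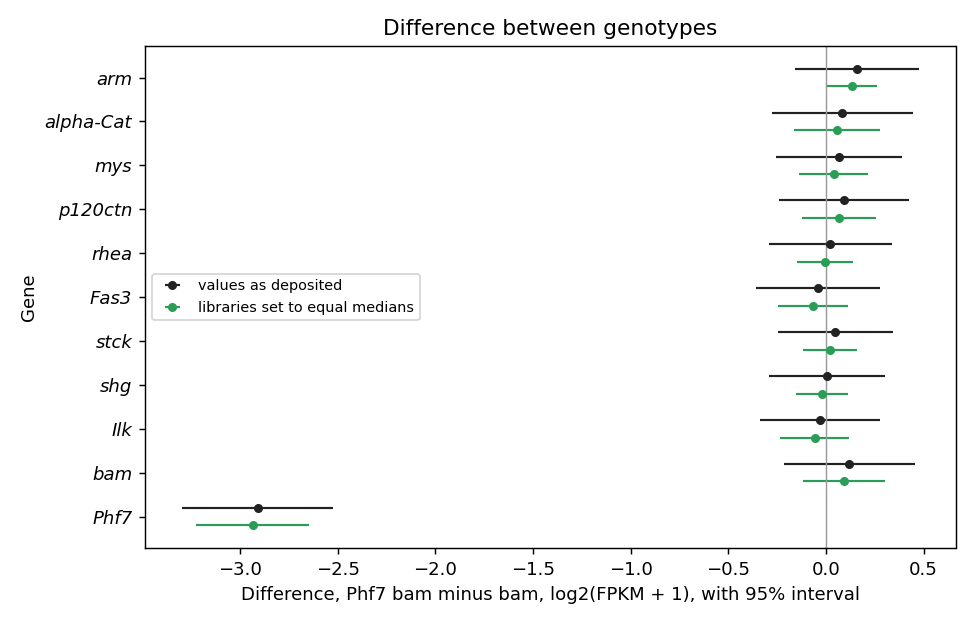
Difference between genotypes (Phf7 bam minus bam) in log2(FPKM + 1) with limma 95% intervals for the 9 tested adhesion genes, bam and Phf7, from the values as deposited (black) and after setting the libraries to equal medians (green). Every interval of the adhesion genes holds 0 in the deposited values, and that of arm lies just above 0 after equal medians, while Phf7 lies near -2.9.

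The replicate spread of the members mostly followed the library as a whole. Phf7 bam replicate 2 was the highest library for 7 of the 10 members, and Phf7 bam replicate 1 the lowest for 6. CadN went the other way, with its lowest value in Phf7 bam replicate 2. The deviation of a tested gene from its own mean over the libraries had a median of 0.10 in Phf7 bam replicate 2 and of -0.08 in Phf7 bam replicate 1, in log2(FPKM + 1). With libraries set to equal medians, SEs of the members shrank from 0.111 to 0.137 down to 0.0446 to 0.0759. arm then differed by 0.13 (SE 0.0446, 95% interval 0.0053 to 0.26), with an unadjusted p of 0.0447 from limma and an adjusted p of 0.368. Under that scaling 13.4% of all tested genes had an unadjusted p under 0.05, and 0 members were called, against 0.201% of tested genes. Both Phf7 bam values of arm were again above both bam values, which held for 24.4% of tested genes. No member had both double mutant values below both bam values under that scaling, beside 23.9% of tested genes.

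**Figure D5:**
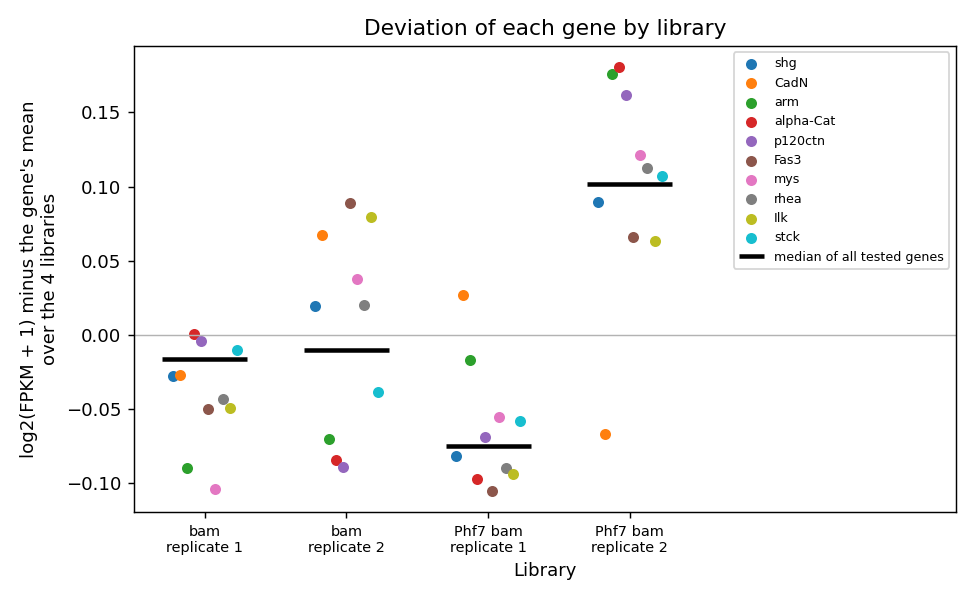
Deviation of log2(FPKM + 1) of each adhesion gene from its own mean over the 4 libraries, by library, with the median over all tested genes as a black bar. Members other than CadN are high with the median in Phf7 bam replicate 2 and below 0 with it in replicate 1. In bam replicate 2 arm, alpha-Cat, p120ctn and stck lie below the median and the other members above it.

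In bam replicate 2 the members lay on both sides of the median of all tested genes. By definition that median has as many tested genes below it as above. arm, alpha-Cat, p120ctn and stck lay below the median of all tested genes there, after centring by -0.06, -0.07, -0.08 and -0.03. The other members lay above it, Fas3 and Ilk the farthest among those tested, by 0.10 and 0.09. Before centring, 4 of 6 germline markers and 0 of 10 muscle sheath markers had their lowest value in the same library, beside 19.9% of all tested genes. By that measure only 1 of the 10 members, p120ctn, was lowest there. These positions and counts were noticed in the values and were not tested.

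By level, the members fell into an order that most pairs of neighbours kept in all 4 libraries. arm, at a mean of 120.4 FPKM, was followed by alpha-Cat at 51.9, mys at 51.5, p120ctn at 44.8, rhea at 35.9, Fas3 at 31.6, stck at 30.4, shg at 29.1 and Ilk at 19.2 FPKM, with CadN last. The ranges over the libraries did not overlap between arm and alpha-Cat, p120ctn and rhea, shg and Ilk, or Ilk and CadN. The other neighbouring pairs overlap in range. alpha-Cat and mys changed places, with alpha-Cat higher in 2 of 4 libraries. The highest value of a tested member was 1.13 to 1.22 times its lowest, with a median of 1.16, beside a median of 1.24 over all tested genes.

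Of the wider cadherin family, 5 of 14 genes reached the minimum for testing, and limma called 0 higher and 0 lower, beside 0.123% and 0.112% of tested genes. At such shares, 0 calls in a list this short say little about the list, which holds for the lists below too. Cals (calsyntenin) gave 33.3 and 36.7 FPKM for bam, and for Phf7 bam 32.0 and 32.5 FPKM. kug (Fat2) followed with 18.4 and 17.3 FPKM for bam and 15.1 and 17.1 FPKM for the double mutant. Both had all Phf7 bam values below the bam values, as did 14.0% of tested genes (differences -0.11 and -0.15, limma adjusted p = 0.933 and 0.923). Of the other 3 tested genes of the family, chosen for naming after their values were seen, Cad87A was also lower in both double mutant libraries, while ds and Cad96Cb were higher in both, as were 20.5% of tested genes. Cad96Cb had the largest difference of the list, with 1.82 and 1.43 FPKM for bam and 2.04 and 2.37 FPKM for the double mutant (difference 0.29, SE 0.217, limma adjusted p = 0.923). Cad99C was listed at 0 in every library, and CadN2, the paralogue of CadN, stood at 0.0221 to 0.0835 FPKM.

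Among 14 partners of adherens junctions 13 were tested and 0 called in either direction, with a median difference of 0.08. chic, the profilin gene, was the most abundant at 709 and 768 FPKM in bam and 728 and 854 FPKM in Phf7 bam testes (difference 0.10, limma adjusted p = 0.978). Rap1, a small GTPase that acts on adherens junctions, was at 112 and 125 FPKM and at 103 and 122 FPKM (difference -0.07, limma adjusted p = 0.981). alpha-Catr, the relative of alpha-Cat, was at 0.126 FPKM or less.

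All 14 further integrin linkers were tested, with 0 called and a median difference of 0.04. The most abundant were Zyx (zyxin), at 44.7 and 42.4 FPKM in bam and 44.9 and 52.0 FPKM in Phf7 bam testes, and Pax (paxillin), at 37.8 and 41.8 FPKM and at 38.7 and 40.4 FPKM. Their limma adjusted p were 0.923 and 0.995. Rsu1, listed as ics, a partner of PINCH, was named after its values were seen. It measured 26.6 and 29.7 FPKM with bam alone mutated, against 20.4 and 24.2 FPKM in the double mutant, a difference of -0.32 (SE 0.134, 95% interval -0.68 to 0.03, limma adjusted p = 0.838). Accordingly stck stood at 1.14 and 0.995 times Rsu1 for bam, against 1.43 and 1.35 times for the double mutant.

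The other integrin subunits (4 of 6 tested) and the integrin ligands (4 of 5 tested) also had 0 called genes. scb had the largest difference of the subunits, 0.15 (limma adjusted p = 0.923), and if differed by -0.0017 (limma adjusted p = 0.999). Of the laminin genes, LanB1 had 34.4 and 35.3 FPKM in the bam libraries, compared with 29.7 and 34.3 FPKM after loss of Phf7 as well (limma adjusted p = 0.933). LanA stood at 14.0 and 15.8 FPKM for bam and 15.2 and 16.3 FPKM for the double mutant (limma adjusted p = 0.976). All 18 genes of a list of septate junction and other adhesion genes, which leaves out Fas3, were tested and 0 called, with a median difference of 0.02. Fas1, encoding Fasciclin 1, was at 153 and 163 FPKM and at 139 and 153 FPKM, and Atpalpha, the sodium pump subunit of septate junctions, at 130.2 and 144 FPKM and at 116 and 138 FPKM (limma adjusted p = 0.944 and 0.966).

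Markers of the hub, of cyst cells and of germ cells were present in all libraries. Of these limma called 0, beside 0.234% of tested genes, and with robust moderation 1, esg, beside 3.42%. For the hub, upd1 gave 0.258 and 0.276 FPKM for bam, and for Phf7 bam 0.195 and 0.207 FPKM. hh stood at 3.55 to 5.48 FPKM over the libraries, and esg at 2.70 and 2.90 FPKM against 1.26 and 1.21 FPKM (difference -0.76, unadjusted p = 0.0145, limma adjusted p = 0.578, and 0.0294 with robust moderation). Summed over the 5 hub markers, which include CadN and Fas3, levels were 38.8 and 42.1 FPKM in bam and 35.2 and 40.7 FPKM in Phf7 bam testes. Fas3 makes up most of these sums. The 5 cyst cell markers summed to 86.3 and 84.6 FPKM in bam and 74.9 and 87.9 FPKM in Phf7 bam testes, with chinmo at 32.0 to 43.1 FPKM and zfh1 at 20.6 to 23.2 FPKM. The largest part of each of these sums is chinmo. Germline markers (6 of 6 above 0) summed to 660 and 625 FPKM and to 679 and 777 FPKM. vas was at 173 to 188 FPKM, and nanos at 136 and 129 FPKM against 171 and 205 FPKM (difference 0.49, unadjusted p = 0.0168, limma adjusted p = 0.610).

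Of the markers of other tissues limma called 0, beside 0.234% of tested genes. With robust moderation it called 2, Hml and Tsf1, both higher in the double mutant, beside 3.42% of tested genes. For most genes the p-values of robust moderation rest on the pooled spread, not on that between the gene's own replicates. The 10 muscle sheath markers summed to 457 and 631 FPKM in bam and to 560 and 636 FPKM in Phf7 bam testes. Replicate 1 of bam was the lowest library for all 10 of these markers. It was lowest for only 2 of the 10 members, mys and arm, beside 2334 of the 8965 tested genes. Of the muscle sheath markers, Act57B was at 181 to 244 FPKM and Mlc2 at 50.5 to 80.8 FPKM. Haemocyte markers summed to 20.0 and 21.4 FPKM in bam and to 27.8 and 28.7 FPKM in Phf7 bam testes, 5 of 6 above 0, with He listed at 0 throughout. Pxn was at 8.94 to 13.1 FPKM, srp at 6.25 to 8.60 FPKM, and Hml at 3.14 and 1.89 FPKM against 5.23 and 4.78 FPKM (unadjusted p = 0.0201, limma adjusted p = 0.643, and 0.00433 with robust moderation). Fat body markers summed to 21.3 and 36.3 FPKM and to 50.2 and 69.2 FPKM, 6 of 6 above 0, with Tsf1 at 7.95 and 8.68 FPKM against 18.0 and 19.1 FPKM (limma adjusted p = 0.0852, or 3.60e-09 under robust moderation) and Lsp2 at 2.38 and 7.12 FPKM against 18.0 and 19.7 FPKM (limma adjusted p = 0.439). The part of these tissues in the members' values was not tested.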

How the data were processed

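The authors deposited 1 table per library with a gene-level FPKM, the bounds of an interval and a status, per the file headers. TopHat2, Cufflinks and Cuffdiff are listed in the submitters' processing notes, with build dm3. For annotation, settings and the use of strand in quantification the sources used here give nothing. Per the labels, poly(A) RNA went into directional libraries. All 40 member values had status OK. Of these, 5 lay outside their own deposited interval (alpha-Cat 3 times, mys and Ilk once each), so the bounds were not used. Count models were not used, as FPKM hold no counts, and relative depth was read from the spacing of values up to 0.15 FPKM.

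Genes with a mean of at least 1 FPKM over the 4 libraries were fitted as log2(FPKM + 1) on genotype with limma 3.58.1 (R 4.3.3), with trend, two-sided, and Benjamini-Hochberg adjusted over all 8965 tested genes; under 0.05 was called. The fit was run on simulated data with independent noise, no shift of whole libraries and changes larger than those of the members. That run therefore does not show how the fit performs on these libraries, which do shift as a whole. Table positions were turned into coordinates counted from 1. Transcripts, exons and protein lengths came from a later annotation by identifier. Tables were joined in Python 3.11.15 with numpy 2.4.6 and pandas 2.3.3, and matplotlib 3.10.9 drew the plots.

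The members and the gene lists were chosen with earlier results of these data known. Named genes are the 10 members, Phf7, bam, the 2 most abundant genes of each list and list genes with an unadjusted p under 0.05; others were named after their values were seen, as neighbours, complex partners or genes listed at or near 0. Alternatives were pseudocounts of 0.1 and 0.5, no minimum or 5 FPKM, quantile normalization or equal medians, robust moderation or none of the trend, a replicate block and each library left out. A crossed pairing was added after seeing the data.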

Additional observations from a re-analysis of the deposited data

How the results depend on the processing

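No member was called by limma in any of 14 alternatives, and the lowest adjusted p of a member was 0.308. Directions were less stable. Equal medians turned shg to -0.018 and rhea to -0.0036, and quantile normalization turned them to -0.024 and -0.011. With each library left out in turn, differences ran from -0.078 to 0.094 for shg, -0.056 to 0.22 for alpha-Cat, -0.022 to 0.21 for p120ctn, -0.12 to 0.046 for Fas3, -0.022 to 0.15 for mys, -0.079 to 0.12 for rhea, -0.11 to 0.048 for Ilk, -0.034 to 0.13 for stck, and 0.063 to 0.26 for arm. arm was thus the 1 tested member that was higher in Phf7 bam testes in every fit run. Its unadjusted p was 0.0155 without Phf7 bam replicate 1, where the median of all genes also rose to 0.11. CadN, under the minimum, ran from -0.087 to 0.0069.

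Of all tested genes limma called 21, which became 0 with no minimum (637 higher and 414 lower at an unadjusted p under 0.05), 37 with a minimum of 5 FPKM, 307 with robust moderation, and 0 to 101 with a library left out. The 0 arose without either Phf7 bam library, with 1214 higher and 218 lower at an unadjusted p under 0.05 without replicate 1, and 354 and 625 without replicate 2; calls numbered 76 without bam replicate 1 and 101 without bam replicate 2. A genotype left with 1 library is assumed to vary like the other. The cause was not tested. The replicate block gave 8 higher and 10 lower and called 0 members. Same-numbered libraries deviated in opposite directions (correlation -0.367 across genes), and a crossed pairing, chosen after seeing the data, called 133 genes and 0 members.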

Other observations

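l(2)gl, a polarity gene of the septate junction list, gave 70.6 and 68.5 FPKM for bam and 80.8 and 94.4 FPKM for Phf7 bam (difference 0.32, SE 0.124, limma adjusted p = 0.816). Cad87A was at 8.24 and 8.69 FPKM and at 6.58 and 7.53 FPKM (difference -0.24, SE 0.124, limma adjusted p = 0.906). wb, a laminin alpha chain gene, was at 3.61 and 3.45 FPKM and at 4.23 and 4.74 FPKM (difference 0.27, SE 0.148, limma adjusted p = 0.906). All 3 were picked with their values in view, and none passed the test.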
